A study of Mus musculus with 40 samples.

Results

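Amino acid transporters were followed here as the gene names that begin with Slc1a, Slc3a, Slc6a, Slc7a, Slc36a, Slc38a or Slc43a, together with Slc16a10, in RNA-seq counts of mouse kidney. The rule found 68 of the 55861 gene names shared by 3 count tables. None was dropped: 0 are annotated as pseudogenes, and 0 carry Control counts that differ between the temporal and the therapy table. Of the 68, 64 are carriers or their subunits. The other 4 lie on the strand opposite a carrier gene and are the antisense RNAs Slc6a19os, Slc36a1os and Slc36a3os and the protein-coding Slc7a6os. After the filter on low counts, 50 names were tested in the temporal table, 51 in the therapy table, 53 in the sham table and 54 in the joint fit of temporal and sham libraries, while 13 were tested in no fit.

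All kidneys came from mice labelled C57bl/6-wt, with 4 libraries in each of 10 groups. The temporal table holds unoperated Control kidneys and kidneys taken 6, 24, 48 and 72 h into reperfusion after ischaemia (ischaemia-reperfusion injury, IRI). The therapy table holds IRI kidneys of mice given human mesenchymal stromal cells (MSC) from umbilical cord (UC-MSC) or bone marrow (BM-MSC), IRI kidneys without cells (AKI, labelled 6 h), and the same 4 Control libraries. The sham table holds kidneys 24 h after surgery without ischaemia (sham 24 h; the treatment label of these samples nevertheless reads IRI) and its own kidneys without surgery (sham control). The cells were injected just after reperfusion. The labels give no age, sex or cell dose, no sampling time for the MSC groups, and no statement that libraries of a group are separate animals, so p-values measure only the spread between these libraries, and that spread may be technical in origin.

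Over the names analysed, libraries held 12957287 to 18490701 counts in the Control, 6 h, AKI, BM-MSC and UC-MSC groups, 4642943 to 13526382 at 24, 48 and 72 h, and 26601247 to 37097091 in the sham table. In the temporal and therapy tables, the 84 names not fitted held a share of all counts that moved with the group: 16.5% to 19.6% in Control of the temporal table, 11.2% to 14.5% at 6 h, 22.7% to 32.5% at 24 h, 29.9% to 41.2% at 48 h and 38.7% to 41.7% at 72 h, and 10.3% to 23.3% in UC-MSC, BM-MSC and AKI. The lowest total over all names was 7775154, at 48 h. Gene names with several lines showed that each deposited table had been joined from parts: Control and 6 h libraries form 1 part, 24, 48 and 72 h libraries another, and AKI libraries stand apart from Control, BM-MSC and UC-MSC. In a comparison across parts, a change in the kidneys and a difference in the making of the parts cannot be told apart. The 72 h libraries had the lowest likeness to their own group (mean correlation of log CPM 0.799 to 0.810), followed by the 48 h libraries (0.833 to 0.841). AKI library 1 (0.906) and 6 h library 1 (0.961) stood apart from the other libraries of their groups. AKI and 6 h libraries carry the same library names and the same labelled time but different counts.

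The proximal tubule reclaims nearly all filtered amino acids. Luminal carriers take them up with sodium, protons or in exchange, and basolateral carriers pass them to the blood. Several carriers are pairs of subunits: Slc3a1 brings Slc7a9 and Slc7a13 to the brush border and Slc3a2 brings Slc7a5, Slc7a7, Slc7a8 and Slc7a11 to the plasma membrane. In humans, loss of SLC3A1 or SLC7A9 causes cystinuria, loss of SLC6A19 Hartnup disorder and loss of SLC7A7 lysinuric protein intolerance. Cells short of amino acids or under oxidative stress induce another set of carriers through the transcription factor ATF4.

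The promoter stretches of Slc3a1 and Slc7a11 are shown because one belongs to a heavy chain that fell at every time and the other to a carrier that rose at every time. Both are the 250 bases before the RefSeq gene start (GRCm38.p6), 5′ to 3′ on the strand of the gene. Capitals mark matches to a motif.
Slc3a1, chr17:85028097-85028346, plus strand: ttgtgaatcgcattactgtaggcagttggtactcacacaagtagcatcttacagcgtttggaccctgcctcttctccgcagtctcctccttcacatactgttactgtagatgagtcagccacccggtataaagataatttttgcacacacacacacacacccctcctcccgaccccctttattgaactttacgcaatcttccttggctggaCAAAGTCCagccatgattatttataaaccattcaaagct
Slc7a11, chr3:50443614-50443863, minus strand: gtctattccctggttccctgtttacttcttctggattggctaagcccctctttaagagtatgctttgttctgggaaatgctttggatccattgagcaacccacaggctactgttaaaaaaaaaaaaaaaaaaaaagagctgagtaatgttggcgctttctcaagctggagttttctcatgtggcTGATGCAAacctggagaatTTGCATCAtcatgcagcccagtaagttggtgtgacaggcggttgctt
In Slc3a1 the capitals are the letters CAAAGTCC of the HNF4 motif, 39 bases before the start. In Slc7a11 they are the letters TGATGNAA of the C/EBP-ATF composite element (CARE), the kind of site ATF4 binds, once on each strand, 66 and 47 bases before the start. Windows of 250 bases before to 50 after the start were matched for 50 members and searched on both strands. CARE occurred in 8.0% of the members and in 4.51% of all 27025 genes with a window. Its other members were Slc7a7 and Slc1a4, which both fell at 72 h, and Slc6a21. The HNF4 letters occurred in 2.0% of the members and 1.63% of all genes. The HNF1 letters GTTAATNA occurred in 8.0% and 2.98%, and the antioxidant element TGACNNNGC in 20% and 14%. A match describes the letters in a window and is no evidence of binding.

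In Control kidneys the luminal system dominated. Per kilobase of exon (CPM, the usual depth-scaled count, divided by GENCODE exon length), Slc7a13, the light chain that pairs with Slc3a1 in the late proximal tubule, stood highest at 537 CPM per kb, followed by Slc3a1 at 253, Slc6a18, a luminal carrier of glycine and other neutral amino acids, at 192, and Slc6a19, the main luminal carrier of neutral amino acids, at 93.0 CPM per kb. The GABA and taurine carrier Slc6a13 (69.7), the creatine carrier Slc6a8 (68.9), Slc3a2 (63.8), Slc7a7 (54.7) and the taurine carrier Slc6a6 (52.9 CPM per kb) came next. At 72 h the order was another one: Slc6a18 at 117 and the neutral amino acid exchanger Slc1a5 at 87.7 CPM per kb stood above Slc7a13 at 41.1 and Slc3a2 at 36.4, and Slc3a1 stood at 13.7 CPM per kb.

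From 24 h on, most called members were lower than in Control. Calls rest on the quasi-likelihood test of edgeR, and p-values were adjusted over all genes by the Benjamini-Hochberg method, with a threshold of 0.05. At 6 h, 5 of 50 members tested were called higher and 8 lower than Control, against 10.3% and 8.51% of all genes tested. At 24 h the counts were 10 higher and 20 lower, or 20% and 40% of the members, against 21.8% and 20.2% of all genes. At 48 h they were 10 and 25 (20% and 50%), against 26.9% and 26.8%, and at 72 h 9 and 26 (18% and 52%), against 26.7% and 29.6%. From 24 h on, the share called lower stood above that of all genes. The share called higher was near that of all genes at 24 h and below it at 48 and 72 h. The members' median log2 fold change against Control was −0.07 at 6 h, −0.61 at 24 h, −1.43 at 48 h and −1.35 at 72 h, where the median over all genes lay between −0.07 and 0.05. In bulk kidney, fewer cells of a type and less RNA per cell cannot be told apart.

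**Figure D1:**
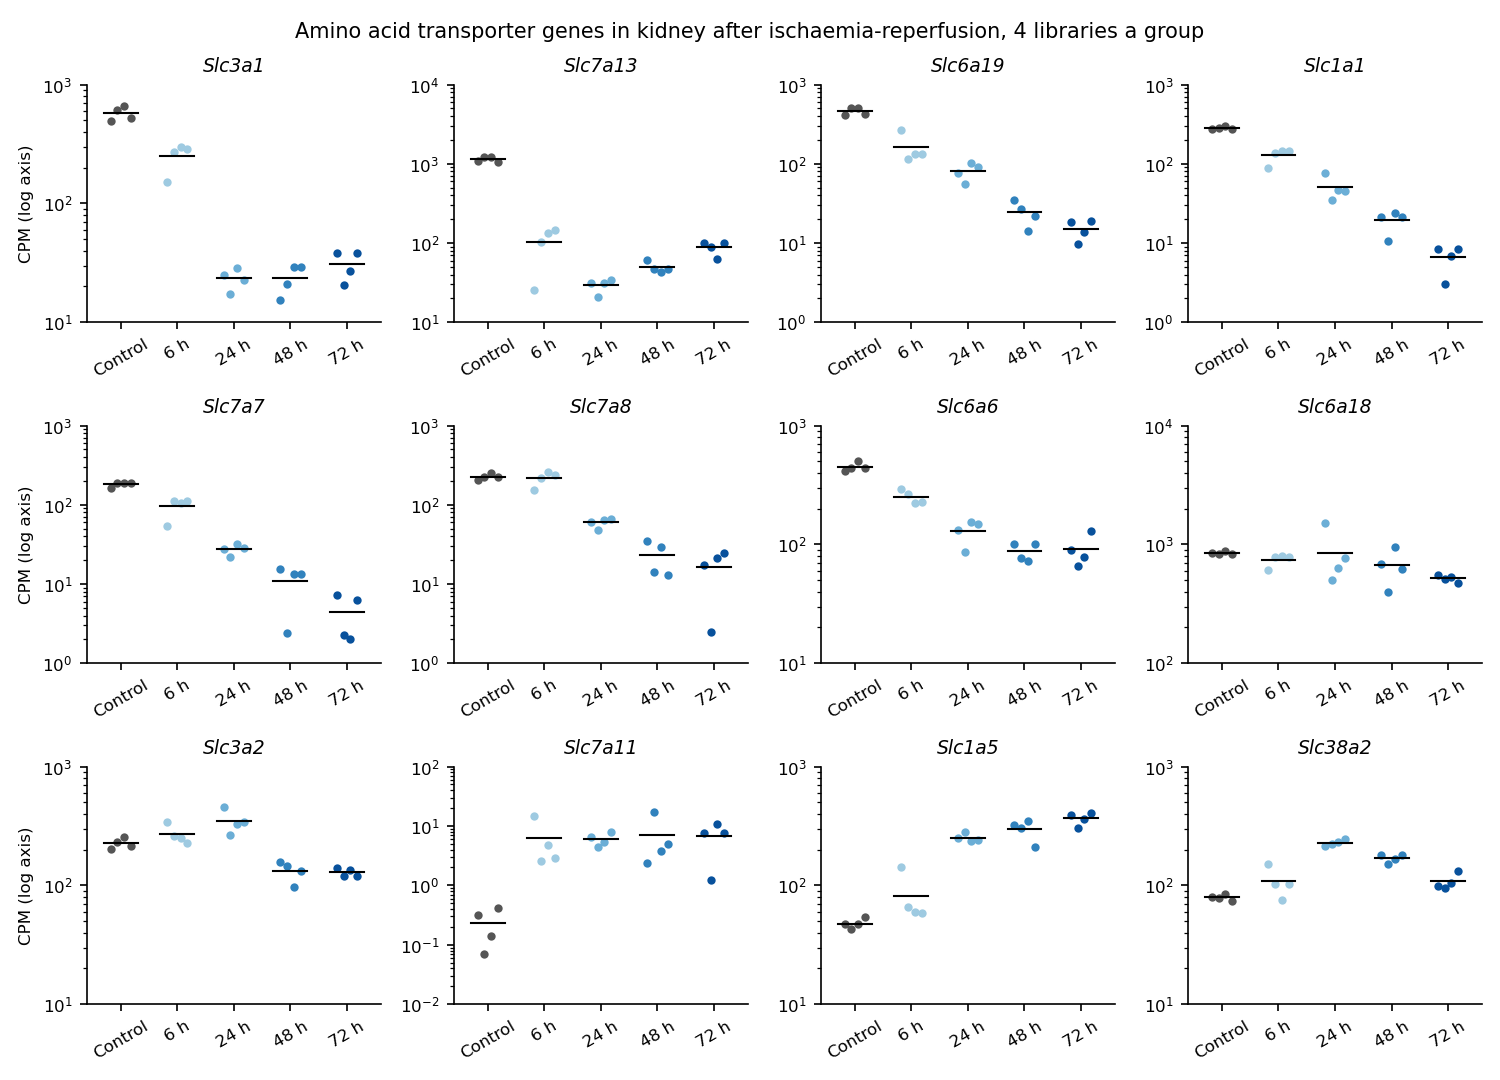
CPM (log axis) of 12 members in Control kidneys and 6, 24, 48 and 72 h after reperfusion; points are libraries, 4 a group, and bars are means. Slc3a1, Slc7a13, Slc6a19, Slc1a1 and Slc7a7 stand lower in every IRI library than in every Control library, Slc6a18 overlaps Control at 24 and 48 h, and Slc7a11 and Slc1a5 stand higher in every IRI library.

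The heavy chain of cystine uptake, Slc3a1, fell at every time. Its CPM was 496, 616, 664 and 524 in Control, 150, 273, 301 and 287 at 6 h, 25.1, 17.4, 28.5 and 22.5 at 24 h, 15.5, 21.0, 29.1 and 29.2 at 48 h, and 38.3, 20.5, 27.0 and 38.6 at 72 h. No IRI library reached the lowest Control library, and no library from 24 h on reached the lowest 6 h library. The log2 fold change against Control was −1.19 ± 0.23 (SE) at 6 h (adjusted p = 0.00055), within 1 part of the table, and −4.62 ± 0.26 at 24 h (adjusted p = 1.8e-11), −4.60 ± 0.27 at 48 h and −4.21 ± 0.26 at 72 h, across parts. The level of the sham control kidneys, which had no surgery, bears on these later values: Slc3a1 stood at 50.8, 72.3, 41.9 and 73.9 CPM there, far below the Control libraries of the temporal table. The tables were scaled apart and this difference was not tested.

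The other heavy chain, Slc3a2, moved in both directions. It stood at 201, 234, 253 and 213 CPM in Control, 343, 258, 250 and 228 at 6 h, 455, 265, 327 and 340 at 24 h, 156, 145, 97.6 and 132 at 48 h, and 139, 120, 135 and 120 CPM at 72 h. All 24 h libraries lay above Control and all 48 and 72 h libraries below it. These later libraries and Control belong to different parts of the table. Sham control kidneys, which had no surgery, also lay below every Control library, with values given further below. The tables were scaled apart and this difference was not tested. Slc3a2 was not called at 6 h, rose at 24 h (log2 fold change 0.62 ± 0.17, adjusted p = 0.0041) and fell at 48 h (−0.76 ± 0.17, adjusted p = 0.00055) and 72 h (−0.81 ± 0.17, adjusted p = 0.0003). The step between 24 and 48 h, which lies within 1 part of the table, was −1.39 ± 0.17 (48 h minus 24 h, adjusted p = 6.6e-06).

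The luminal carriers fell as a group, and their summed level was 3088 to 3488 CPM in Control, 1125 to 1538 at 6 h, 692 to 1821 at 24 h, 541 to 1163 at 48 h and 640 to 718 CPM at 72 h. Sham control kidneys, which had no surgery, summed to 1650 to 2065 CPM, below all Control libraries and overlapping the 24 h libraries. The tables were scaled apart and this difference was not tested. Of 9 luminal members, 4 fell at 6 h, 6 at 24 h, 7 at 48 h and 9 at 72 h, and 0 rose. Their median log2 fold change was −0.88, −2.0, −3.04 and −3.71 at the 4 times.

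Slc7a13 stood at 1098, 1230, 1217 and 1055 CPM in Control, 25.3, 102, 135 and 146 at 6 h, 31.6, 21.0, 31.1 and 33.8 at 24 h, 60.2, 47.1, 42.8 and 47.6 at 48 h, and 99.6, 88.8, 63.0 and 101 CPM at 72 h. Every 72 h library lay above every 48 h library and below every Control library. Its log2 fold change against Control was −3.49 ± 0.33 at 6 h (adjusted p = 1.3e-07), −5.29 ± 0.37 at 24 h (adjusted p = 1.9e-10), −4.54 ± 0.35 at 48 h and −3.71 ± 0.34 at 72 h (adjusted p = 4.1e-09). Slc7a9, the Slc3a1 partner that takes up cystine and dibasic amino acids, had 118, 131, 133 and 122 CPM in Control, 38.3, 78.3, 80.2 and 77.4 at 6 h, 41.9, 23.8, 31.6 and 29.0 at 24 h, 18.1, 5.52, 31.0 and 13.2 at 48 h, and 7.88, 16.2, 7.80 and 4.70 CPM at 72 h. No IRI library reached Control, and the fall was called from 24 h (−2.0 ± 0.36, adjusted p = 7.6e-05) to 72 h (−3.78 ± 0.40, adjusted p = 3.5e-08).

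Slc6a19 and Slc1a1, the luminal glutamate, aspartate and cysteine carrier, had lower means at each later time. Slc6a19 had 418, 504, 512 and 429 CPM in Control, 270, 115, 131 and 132 at 6 h, 75.5, 55.1, 103 and 91.8 at 24 h, 35.0, 27.1, 14.4 and 21.7 at 48 h, and 18.6, 9.64, 13.6 and 19.1 CPM at 72 h. Slc1a1 had 277, 286, 295 and 275 CPM in Control, 89.4, 137, 146 and 146 at 6 h, 75.4, 35.3, 46.8 and 45.2 at 24 h, 21.3, 10.7, 23.7 and 21.3 at 48 h, and 8.32, 3.08, 6.80 and 8.47 CPM at 72 h. For Slc1a1 the libraries of successive times did not overlap. The log2 fold change of Slc6a19 ran from −1.52 ± 0.27 at 6 h (adjusted p = 0.00024) to −4.94 ± 0.32 at 72 h (adjusted p = 2e-11), and that of Slc1a1 from −1.13 ± 0.24 (adjusted p = 0.0017) to −5.42 ± 0.31 (adjusted p = 2.5e-12). Between 24 and 48 h, within 1 part of the table, Slc6a19 fell by 1.73 ± 0.28 and Slc1a1 by 1.39 ± 0.26 on the log2 scale (48 h minus 24 h, adjusted p = 0.00014 and 0.0005).

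Slc6a18 followed another course. It stood at 846, 834, 879 and 825 CPM in Control, 613, 788, 803 and 779 at 6 h, 1501, 502, 633 and 774 at 24 h, 688, 396, 951 and 625 at 48 h, and 548, 507, 536 and 476 CPM at 72 h. Libraries at 24 and 48 h overlapped Control on both sides. It was not called at 6, 24 or 48 h, and the fall at 72 h (−0.71 ± 0.25, adjusted p = 0.019) was lost with DESeq2 size factors (−0.58, adjusted p = 0.056). Slc6a20b, a copy of the imino acid carrier, fell by 1.40 ± 0.35 on the log2 scale at 6 h and by 4.08 ± 0.39 at 24 h. Its reads may be shared with the related copy Slc6a20a, which was not tested, so its values are uncertain. The proton-coupled carriers Slc36a1 and Slc36a2, which take up glycine and proline, fell later. Slc36a1 was lower by 1.61 ± 0.34 (log2) at 24 h and by 2.72 ± 0.37 at 72 h. Slc36a2 averaged 11.1 ± 2.89 CPM in Control libraries and 1.09 ± 1.67 CPM in 72 h libraries (SD, n = 4 each). It had −3.04 ± 0.80 at 48 h (−3.76 without 48 h library 2) and −3.38 ± 0.84 at 72 h (−5.31 without 72 h library 4).

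The basolateral carriers fell after 6 h. Their summed level was 678 to 809 CPM in Control, 562 to 716 at 6 h, 185 to 254 at 24 h, 63.7 to 143 at 48 h and 84.2 to 128 CPM at 72 h. In sham control kidneys, which had no surgery, it was 267 to 334 CPM, below all Control and 6 h libraries and above the 24 h libraries. The tables were scaled apart and this difference was not tested. Of 5 basolateral members, 0 were called at 6 h, 5 fell at 24 and at 48 h, and 4 at 72 h. Slc7a7, which with Slc3a2 exports dibasic amino acids, had 163, 187, 189 and 186 CPM in Control, 53.9, 112, 107 and 112 at 6 h, 27.3, 21.7, 32.2 and 28.8 at 24 h, 15.3, 2.39, 13.3 and 13.2 at 48 h, and 7.22, 2.26, 2.0 and 6.35 CPM at 72 h. All IRI libraries were below Control, and the log2 fold change was −2.72 ± 0.35 at 24 h (adjusted p = 1.5e-06) and −5.36 ± 0.43 at 72 h (adjusted p = 4.8e-10). The neutral amino acid exchanger Slc7a8 averaged 226 ± 17.8 CPM in Control, 216 ± 44.7 at 6 h, 59.9 ± 8.03 at 24 h, 23.0 ± 11.2 at 48 h and 16.4 ± 9.75 CPM at 72 h (SD, n = 4 each). Its fall was −1.91 ± 0.36 at 24 h and −3.79 ± 0.40 at 72 h.

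The aromatic amino acid carrier Slc16a10 averaged 71.1 ± 9.33 CPM in Control, 67.4 ± 7.25 at 6 h, 33.7 ± 6.33 at 24 h, 9.37 ± 5.92 at 48 h and 4.86 ± 3.79 CPM at 72 h. It lost more between 24 and 48 h (48 h minus 24 h −1.84 ± 0.40, adjusted p = 0.002), within 1 part of the table. Slc43a2, an exit path for branched-chain amino acids, fell by 1.06 ± 0.22 at 24 h and 2.14 ± 0.23 at 72 h on the log2 scale. Slc38a3, the glutamine carrier known to be induced in acidosis, was called at 24 and 48 h but not at 6 or 72 h. It had 56.7, 48.3, 61.5 and 58.0 CPM in Control, 65.0, 86.1, 111 and 110 at 6 h, 10.8, 5.37, 4.03 and 4.62 at 24 h, 13.6, 0, 36.9 and 20.3 at 48 h, and 19.5, 40.8, 16.4 and 48.7 CPM at 72 h. All 6 h libraries lay above Control and all 24 h libraries below it, while at 48 h 1 library held no read of it. The change at 24 h was −3.20 ± 0.62 against Control (adjusted p = 0.00019) and −3.93 ± 0.63 against 6 h (adjusted p = 5.3e-05).

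The osmolyte and creatine carriers fell in 2 of 4 members at 6 h and in 3 of 4 from 24 to 72 h. Their summed level was 954 to 1091 CPM in Control and 320 to 462 CPM at 24 h. Sham control kidneys, which had no surgery, held 391 to 480 CPM. The tables were scaled apart and this difference was not tested. The taurine carrier Slc6a6 had 418, 437, 500 and 435 CPM in Control, 292, 265, 221 and 227 at 6 h, 132, 86.5, 155 and 148 at 24 h, 100, 77.5, 72.8 and 101 at 48 h, and 89.5, 65.6, 78.4 and 129 CPM at 72 h. Its IRI libraries were all below Control, with log2 fold changes of −0.83 ± 0.19 at 6 h (adjusted p = 0.0028) and −2.31 at 72 h. Slc6a13 fell by 1.5 at 6 h and 3.16 ± 0.39 at 72 h, and the creatine carrier Slc6a8 by 1.66 ± 0.16 at 48 h and 2.17 ± 0.17 at 72 h, on the log2 scale. The betaine carrier Slc6a12 was not called at any of the 4 times.

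The stress-inducible carriers went the other way. Their summed level was 206 to 225 CPM in Control, 254 to 465 at 6 h, 558 to 597 at 24 h, 482 to 588 at 48 h and 474 to 611 CPM at 72 h. At 72 h most of this sum came from Slc1a5 alone, whose values are given below. Of 8 members, 4 rose at 6 h, 6 at 24 h, 5 at 48 h and 5 at 72 h, while 0, 0, 2 and 1 fell. Slc7a11, the cystine-glutamate exchanger that feeds glutathione synthesis and whose promoter stretch is printed above, had 0.318, 0.0704, 0.138 and 0.419 CPM in Control, 14.5, 2.60, 4.75 and 2.86 at 6 h, 6.53, 4.47, 5.38 and 8.0 at 24 h, 2.34, 17.3, 3.82 and 5.03 at 48 h, and 7.66, 1.23, 10.8 and 7.53 CPM at 72 h. Every IRI library lay above every Control library. Its log2 fold change was 4.63 ± 0.83 at 6 h (adjusted p = 0.00029; 3.77 without 6 h library 1), 4.61 ± 0.83 at 24 h (adjusted p = 9.3e-05), 4.83 ± 0.84 at 48 h (3.86 without 48 h library 2) and 4.77 ± 0.84 at 72 h (adjusted p = 4.6e-05).

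Slc1a5 exchanges glutamine and other neutral amino acids. It had 47.5, 42.6, 47.0 and 53.9 CPM in Control, 142, 66.2, 59.6 and 58.0 at 6 h, 249, 282, 234 and 241 at 24 h, 320, 305, 350 and 211 at 48 h, and 390, 305, 359 and 410 CPM at 72 h. All IRI libraries were above Control. At 6 h the rise of 0.77 (log2) rested on single libraries, as it was 0.36 (adjusted p = 0.13) without 6 h library 1 and 0.71 (adjusted p = 0.056) without Control library 2. It was 2.40 ± 0.23 at 24 h (adjusted p = 1.8e-08) and 2.94 ± 0.24 at 72 h (adjusted p = 4.8e-10). The sham control kidneys, which had no surgery, held 74.9 to 116 CPM of Slc1a5, above all Control libraries of the temporal table and below all libraries from 24 h on.

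The glutamine carrier Slc38a2 had 80.4, 78.7, 84.4 and 74.0 CPM in Control, 152, 103, 75.9 and 102 at 6 h, 214, 224, 232 and 245 at 24 h, 179, 150, 167 and 179 at 48 h, and 98.5, 94.3, 106 and 133 CPM at 72 h. It was highest at 24 h, where it rose by 1.53 ± 0.16 on the log2 scale (adjusted p = 8.1e-08), and its rise at 48 h was 1.09 ± 0.16. The cationic amino acid carrier Slc7a1 had 12.2, 15.0, 16.2 and 14.6 CPM in Control and 50.6, 28.9, 25.6 and 23.5 CPM at 6 h, with no overlap and a log2 fold change of 1.15 ± 0.28 (adjusted p = 0.0051) that was 1.14 at 24 h and 1.03 at 48 h. Slc7a5, the exchanger of large neutral amino acids, rose at 6 h (1.81 ± 0.49, adjusted p = 0.0098), a call lost without 6 h library 1 (1.46, adjusted p = 0.057). The low-level cationic carrier Slc7a3 had 0.573, 0.0704, 0.138 and 0.209 CPM in Control and 6.13, 7.79, 4.20 and 2.12 CPM at 72 h. Its log2 fold changes of 2.71, 3.80 and 4.28 at 24, 48 and 72 h were 3.49, 4.57 and 5.05 without Control library 1. Slc1a4, an alanine, serine and cysteine carrier, fell at 72 h (−2.46).

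**Figure D2:**
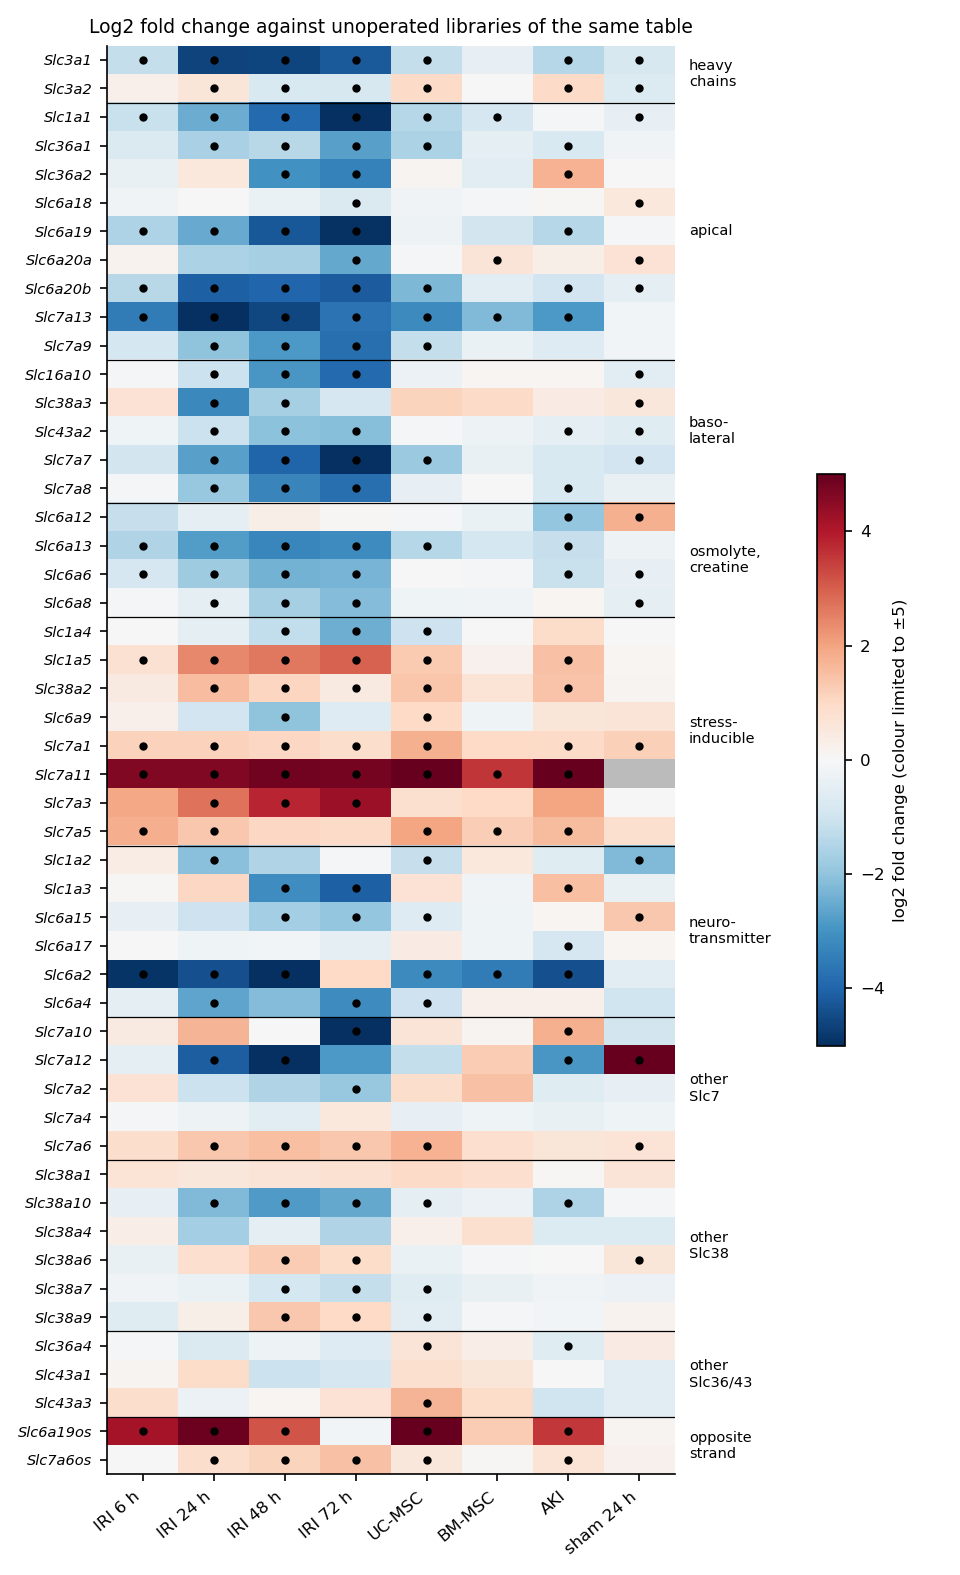
Log2 fold change against the unoperated libraries of the same table for 50 members in 8 comparisons, grouped by role, with the colour limited to ±5; dots mark calls and grey marks the member not tested in the sham table (Slc7a11). Luminal and basolateral members are blue at 48 and 72 h, as they are at 24 h apart from Slc6a18 and Slc36a2, and stress-inducible members are mostly red.

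Among the other members, Slc38a10, a glutamine and glutamate carrier of the same family as Slc38a2, fell by 2.21 ± 0.16 at 24 h, 2.84 ± 0.16 at 48 h and 2.58 ± 0.16 at 72 h on the log2 scale. It had 267 to 289 CPM in Control, 196 to 223 at 6 h, 56.2 to 62.4 at 24 h, 29.3 to 54.7 at 48 h and 42.0 to 54.6 CPM at 72 h. The sham control kidneys held 53.3 to 69.3 CPM of Slc38a10, so libraries without any surgery lay at its level in the 24 h libraries. Slc38a9, the lysosomal arginine sensor of the mTORC1 pathway, rose by 1.33 ± 0.23 at 48 h and 1.01 ± 0.23 at 72 h, and by 1.05 ± 0.23 between 24 and 48 h (48 h minus 24 h, adjusted p = 0.0018). Slc7a6, a partner of Slc3a2 that is widely expressed outside the kidney, rose by 1.33 at 24 h, 1.51 at 48 h and 1.34 at 72 h, and the overlapping Slc7a6os by 0.89, 1.13 and 1.45. The sources used here do not say whether the counting used strand, so reads of overlapping names on opposite strands may be mixed. The same holds for Slc6a19os, which rose at 24 h (4.90 ± 1.31, adjusted p = 0.0042) where Slc6a19 fell. At 48 h Slc7a12 and the noradrenaline carrier Slc6a2 had no count in any library, which puts Slc7a12 at least 40.7-fold and Slc6a2 at least 22.6-fold lower than Control, taking 3 counts summed over the 4 libraries as the floor. At 72 h the same held for Slc7a10, at least 6.26-fold lower. These bounds set libraries of different parts of the table against each other. Sham control kidneys, which had no surgery, also held less Slc7a12 than every Control library of the temporal table.

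More members were called lower than higher in the steps from 6 to 24 h and from 24 to 48 h. From 6 to 24 h, across parts, 5 of 50 members rose and 17 fell, against 14.9% and 13.9% of all genes. From 24 to 48 h, within 1 part, 1 rose (Slc38a9) and 12 fell, against 9.0% and 12.1% of all genes. With DESeq2 size factors the split over all genes in that step turned round, at 1842 higher and 1549 lower in place of 1499 and 2014. From 48 to 72 h, 1 rose and 3 fell, or 2.0% and 6.0% of the members, near the 2.04% and 3.63% of all genes. The steps with Slc6a8 (48 h minus 24 h −1.19 ± 0.16, adjusted p = 2.2e-05) and Slc3a2 were called in the same direction under each alternative run.

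Other genes of amino acid handling changed too. Of 20 genes of the amino acid response, 16 rose and 2 fell at 6 h (median log2 fold change 1.68), 16 and 2 at 24 h (2.01), and 13 and 4 at 72 h (1.30). At 6 h the mitochondrial folate enzyme Mthfd2 rose by 2.89 ± 0.32 (adjusted p = 6.8e-07), the pseudokinase Trib3 by 2.70 ± 0.45, the transcription factor Atf3 by 2.67 ± 0.36 and the proline enzyme Pycr1 by 2.57 ± 0.76 on the log2 scale. Psph (0.38) and Sesn2 (−0.02) were not called there. Of 13 brush border partners tested, 8 fell at 6 h and 13 at 24, 48 and 72 h, and 0 rose. Collectrin (Cltrn), which Slc6a19 needs to reach the membrane, fell by 2.07 ± 0.20 at 6 h, the scaffold Pdzk1 by 4.34 ± 0.25 and the endocytic receptor Lrp2 by 3.91 ± 0.43 at 24 h, and the protease Mep1b by 3.95 ± 0.36 at 6 h and 4.86 ± 0.38 at 24 h.

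Of 24 genes of renal amino acid metabolism, 2 rose and 15 fell at 6 h, 0 and 20 at 24 h, and 0 and 22 at 72 h. Gatm, the first enzyme of creatine synthesis, fell by 4.43 ± 0.38 and the tyrosine-degrading Hpd by 4.02 ± 0.48 on the log2 scale at 24 h. Of 8 glutathione synthesis genes, 4 fell at 6 h, 6 at 24 h and 7 at 72 h, and 0 rose. The transsulfuration enzymes Cbs (−3.36 ± 0.27) and Cth (−2.27 ± 0.31) and glutathione synthetase Gss (−1.05 ± 0.19) fell at 24 h, where Gclc (−0.27) and Gsr (0.11) were not called. Of 10 nutrient-sensing genes, 1 rose and 5 fell at 24 h, among them Mtor (−2.19 ± 0.19).

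Markers of the tubule moved beside these results. The summed level of 8 early proximal tubule markers was 11541 to 14167 CPM in Control, 2283 to 6472 at 6 h, 1151 to 2106 at 24 h, 629 to 1492 at 48 h and 608 to 687 CPM at 72 h (Lrp2, Cubn and Gatm also stand in lists above), and 4 of 8 fell at 6 h and 8 of 8 at 24 h. For 7 late proximal tubule markers, with Slc7a13 left out, the sums were 7465 to 8941 CPM in Control, 1382 to 2351 at 6 h, 582 to 1247 at 24 h, 675 to 846 at 48 h and 704 to 902 CPM at 72 h, and 6 of 7 fell at 6 h and 7 of 7 at 24 h. Tubule markers outside the proximal part moved as well. The 7 thick limb markers summed to 5140 to 5606 CPM in Control, 1613 to 2654 at 6 h, 304 to 558 at 24 h and 642 to 726 CPM at 72 h. The 8 distal and collecting duct markers summed to 1594 to 1708 CPM in Control, 1364 to 2313 at 24 h and 542 to 791 CPM at 72 h. The 9 injured-tubule markers summed to 1082 to 1707 CPM in Control, 11774 to 18440 at 6 h, 15689 to 23232 at 24 h, 6389 to 13357 at 48 h and 5115 to 7576 CPM at 72 h. The 6 neutrophil markers in the temporal table, of which Ly6g and Mpo were at 0 in Control, summed to 2.95 to 5.03 CPM in Control and 51.7 to 455 CPM at 6 h, and 8 macrophage markers to 206 to 218 CPM in Control and 409 to 544 CPM at 6 h. The part of cell composition in the members' changes was not tested.

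In the therapy table, luminal carriers were again among the members that fell and stress-inducible ones among those that rose. In UC-MSC kidneys, 12 of 51 members tested were called higher and 16 lower than Control, against 20.4% and 16.7% of all genes. In BM-MSC kidneys 3 were called higher and 3 lower, against 6.56% and 2.36%. In AKI kidneys, across parts, 11 were called higher and 15 lower, against 20% and 15.1%. The luminal carriers summed to 1133 to 1616 CPM in UC-MSC, 1077 to 2116 in BM-MSC, 1571 to 1838 in AKI and 2886 to 3183 CPM in Control. The stress-inducible carriers summed to 353 to 538 CPM in UC-MSC, 227 to 362 in BM-MSC, 371 to 734 in AKI and 192 to 205 CPM in Control. Control values beside the MSC and AKI groups are scaled with the therapy table, and the comparisons against Control share the same 4 Control libraries.

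**Figure D3:**
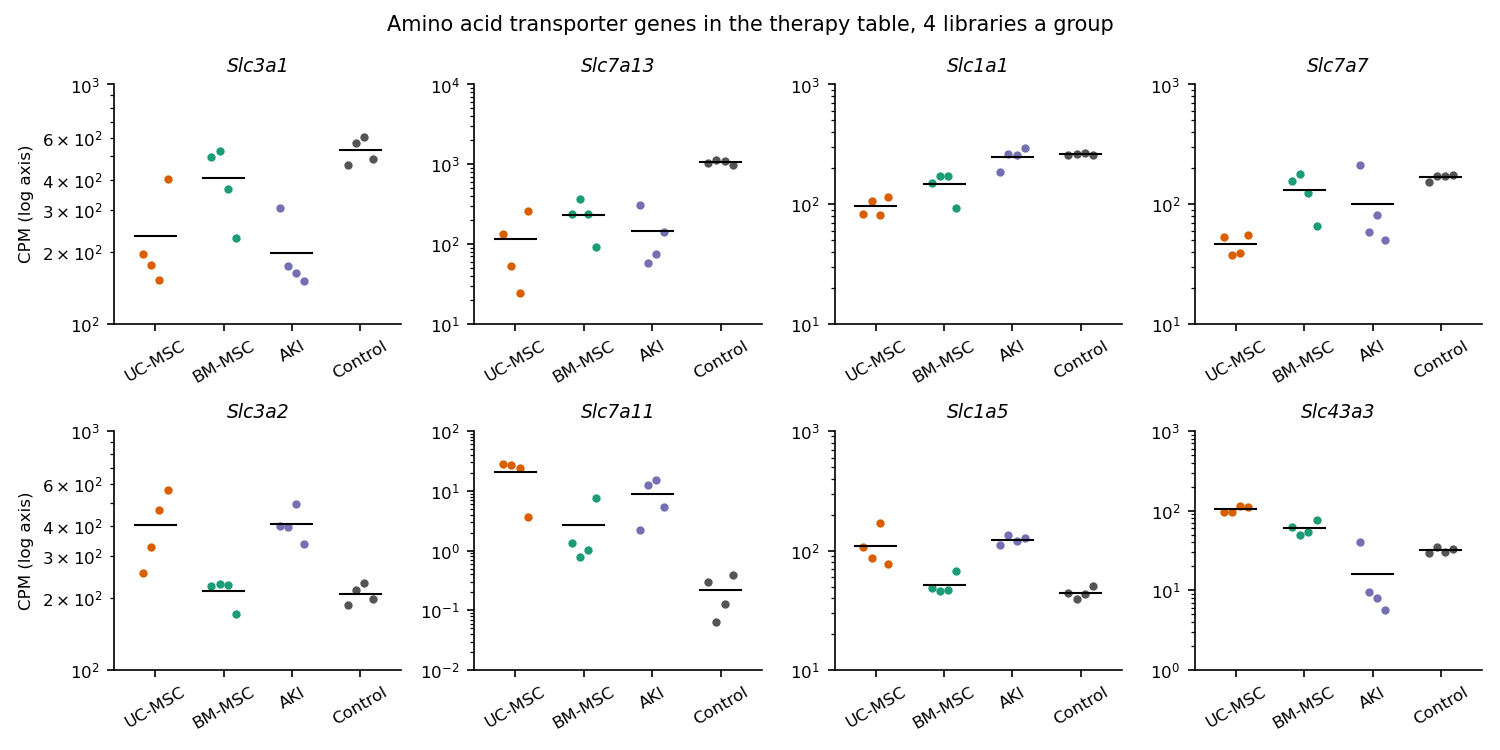
CPM (log axis) of 8 members in UC-MSC, BM-MSC, AKI and Control kidneys; points are libraries, 4 a group, and bars are means. Slc7a7 and Slc1a1 stand lower in every UC-MSC library than in every Control library, and Slc1a5 stands higher in every UC-MSC library than in every BM-MSC library.

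Slc3a1 had 195, 176, 153 and 403 CPM in UC-MSC, 498, 529, 366 and 228 in BM-MSC, 304, 175, 163 and 150 in AKI, and 462, 568, 606 and 490 CPM in Control. UC-MSC library 4 and AKI library 1 stood above the other libraries of their groups, and BM-MSC overlapped Control. The log2 fold change against Control was −1.20 ± 0.32 in UC-MSC (adjusted p = 0.0088) and −1.42 ± 0.32 in AKI (adjusted p = 0.0033). Slc7a13 had 132, 52.2, 24.0 and 257 CPM in UC-MSC, 240, 361, 235 and 92.6 in BM-MSC, 306, 56.9, 74.5 and 139 in AKI, and 1023, 1135, 1110 and 986 CPM in Control. All injured libraries lay below Control, with −3.19 ± 0.66 in UC-MSC (adjusted p = 0.0016; −3.94 without UC-MSC library 4) and −2.88 ± 0.65 in AKI (adjusted p = 0.003; −3.58 without AKI library 1).

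Of 9 luminal members, 5 fell in UC-MSC, 2 in BM-MSC and 4 in AKI, and of 5 basolateral members, 1, 0 and 2. Luminal members called higher were 0 in UC-MSC, 1 in BM-MSC (Slc6a20a) and 1 in AKI (Slc36a2). Slc1a1 averaged 0.84 ± 0.19 lower on the log2 scale in BM-MSC than in Control (adjusted p = 0.013) and 1.44 ± 0.20 lower in UC-MSC (adjusted p = 7.5e-05). Slc7a7 had 53.4, 37.3, 38.7 and 55.0 CPM in UC-MSC, 155, 180, 124 and 65.7 in BM-MSC, 210, 58.9, 81.0 and 50.4 in AKI, and 152, 173, 172 and 174 CPM in Control. UC-MSC libraries lay below all BM-MSC and Control libraries, and Slc7a7 fell in UC-MSC by 1.86 ± 0.38 against Control (adjusted p = 0.0016) and by 1.51 ± 0.38 against BM-MSC (adjusted p = 0.012), on the log2 scale. In UC-MSC against Control, Slc6a20b fell by 2.23 ± 0.37, Slc36a1 by 1.57 ± 0.27, Slc7a9 by 1.21 ± 0.26 and Slc6a13 by 1.43 ± 0.39 (2.16 without UC-MSC library 4).

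The stress-inducible carriers were higher in UC-MSC than in BM-MSC for 3 of 8 members and lower for 0. Slc7a11 had 27.7, 27.1, 24.5 and 3.65 CPM in UC-MSC, 1.35, 0.783, 1.02 and 7.5 in BM-MSC, 2.25, 12.4, 15.2 and 5.44 in AKI, and 0.297, 0.0649, 0.126 and 0.391 CPM in Control. UC-MSC library 4 stood below the other UC-MSC libraries and BM-MSC library 4 above the other BM-MSC libraries, so these groups overlapped. The log2 fold change was 6.51 ± 0.99 in UC-MSC against Control (adjusted p = 0.00017), 5.28 ± 0.97 in AKI against Control (adjusted p = 0.00073), and 2.94 ± 0.76 in UC-MSC against BM-MSC (adjusted p = 0.014; 4.27 without BM-MSC library 4).

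Slc1a5 had 108, 86.6, 169 and 76.5 CPM in UC-MSC, 48.3, 45.5, 46.7 and 66.9 in BM-MSC, 112, 135, 120 and 127 in AKI, and 44.3, 39.3, 42.9 and 50.4 CPM in Control. UC-MSC and AKI libraries did not overlap those of BM-MSC or Control. It rose by 1.32 ± 0.21 in UC-MSC (adjusted p = 0.00023) and 1.48 ± 0.21 in AKI (adjusted p = 0.0001) against Control, and by 1.09 ± 0.21 in UC-MSC against BM-MSC (adjusted p = 0.0029). Slc3a2 was 0.95 ± 0.21 higher in UC-MSC than in Control and 0.92 ± 0.21 higher than in BM-MSC (adjusted p = 0.0028 and 0.0076), and 0.96 ± 0.21 higher in AKI than in Control. The glycine carrier Slc6a9 was 1.23 ± 0.31 higher in UC-MSC than in BM-MSC. Slc7a5 rose by 1.98 ± 0.37 in UC-MSC and 1.60 ± 0.37 in AKI, and Slc7a1 by 1.77 ± 0.34 in UC-MSC, against Control.

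UC-MSC against BM-MSC lies within 1 part of the table, and 6 of 51 members were called higher and 10 lower, against 10.0% and 10.4% of all genes. Of 9 luminal members 5 fell and 0 rose (median −0.77). Of the 20 amino acid response genes 10 rose and 0 fell (median 0.93), among them Atf3 (2.88 ± 0.74), the mTORC1 inhibitor Ddit4 (2.12 ± 0.31), Trib3 (1.98 ± 0.49) and Chac1 (1.94 ± 0.38), which degrades glutathione. Of 14 brush border partners 6 fell, among them Lrp2 (−1.62 ± 0.37) and Pdzk1 (−1.48 ± 0.30). The early proximal tubule markers summed to 1947 to 6353 CPM in UC-MSC and 4519 to 10666 CPM in BM-MSC, and the late proximal tubule markers to 1503 to 6436 CPM in UC-MSC and 1130 to 2797 CPM in BM-MSC. Of these sets, 4 of 8 early and 1 of 7 late markers fell. Thick limb markers summed to 340 to 1283 CPM in UC-MSC and 2422 to 4394 CPM in BM-MSC, with no overlap, and 4 of 7 fell. The neutrophil markers summed to 49.3 to 526 CPM in UC-MSC and 12.7 to 339 CPM in BM-MSC. The part of these cells, and of the unstated sampling times, was not tested. Slc6a19os was 5.27 ± 0.60 higher in UC-MSC than in BM-MSC (6.02 without BM-MSC library 4). It had 12.8, 28.5, 33.0 and 29.7 CPM in UC-MSC against 0.562, 0.301, 0.282 and 1.44 CPM in BM-MSC.

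In BM-MSC against Control, Slc1a1 kept its call in each refit. Slc7a13 (−2.20 ± 0.63, adjusted p = 0.04), Slc7a11 (3.57 ± 0.96, adjusted p = 0.03), Slc7a5 (1.24 ± 0.36, adjusted p = 0.044), Slc6a20a (0.66 ± 0.20, adjusted p = 0.048) and Slc6a2 (−3.51 ± 0.82, adjusted p = 0.015) were called too. The first 4 lost the call without any single Control library, and so did Slc6a2 without Control library 1 (−3.13) or 4 (−3.25). Calls were also lost without BM-MSC library 4 for Slc7a13 (−1.94), Slc7a11 (2.20) and Slc7a5 (0.74), without library 1 for Slc7a13 (−2.21) and Slc6a20a (0.58), without library 2 for Slc6a20a (0.63), and without library 3 for Slc7a13 (−2.20), Slc7a5 (1.31) and Slc6a20a (0.64). Without the Control libraries in turn, the values of Slc7a13 lay between −2.23 and −2.16, those of Slc7a11 between 3.28 and 3.97, those of Slc7a5 between 1.17 and 1.30 and those of Slc6a20a between 0.59 and 0.71.

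Against AKI kidneys the calls depended on which untreated IRI kidneys were used. In UC-MSC 9 of 51 members were called higher and 11 lower than in AKI, against 20.3% and 20.2% of all genes, and in BM-MSC 11 higher and 9 lower, against 16.3% and 17.1%. With the 6 h libraries of the temporal table in place of AKI, the counts were 5 and 5 for UC-MSC, against 11.7% and 11.4% of all genes, and 0 and 0 for BM-MSC, against 1.01% and 1.55%. Calls over all genes dropped likewise, so this drop is not a result about the carriers. Called with both were Slc36a4, Slc43a3 and Slc6a6 as higher and Slc1a4, Slc36a1, the lysosomal glutamine carrier Slc38a7 and Slc7a7 as lower in UC-MSC. Slc43a3, in humans a carrier of nucleobases, had 95.5, 95.2, 115 and 111 CPM in UC-MSC, 62.4, 49.6, 54.2 and 76.9 in BM-MSC, 40.7, 9.42, 8.13 and 5.73 in AKI, and 29.5, 35.0, 30.3 and 33.1 CPM in Control. It was 2.71 ± 0.45 higher in UC-MSC than in AKI (3.73 without AKI library 1; 0.73, adjusted p = 0.029, against the 6 h libraries) and 1.70 ± 0.43 higher than in Control. In BM-MSC it was 1.93 ± 0.44 higher than in AKI (2.97 without AKI library 1), but −0.0496 (adjusted p = 0.91) against the 6 h libraries.

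Slc6a6 was higher than in AKI by 1.11 ± 0.25 in UC-MSC (0.73, adjusted p = 0.023, against 6 h) and by 1.04 ± 0.25 in BM-MSC (0.66, adjusted p = 0.083, against 6 h). Slc1a4 fell by 1.93 ± 0.37 in UC-MSC against AKI (1.13 against 6 h). Slc7a12, a carrier of small neutral amino acids, had 18.8, 8.08, 8.24 and 8.34 CPM in BM-MSC and 1.05, 0.705, 0 and 0.591 CPM in AKI. Its log2 fold change of 4.20 ± 0.75 in BM-MSC against AKI was 1.62 (adjusted p = 0.13) against the 6 h libraries. Against Control, AKI kidneys had less Slc38a10 (−1.55 ± 0.14, adjusted p = 3.5e-06), Slc6a6 (−1.11 ± 0.25), Slc7a12 (−2.93 ± 0.73) and Slc6a2 (−4.41 ± 0.90; −5.60 without AKI library 4), and more Slc36a2 (1.73 ± 0.41). In UC-MSC against Control, Slc38a10 (−0.49 ± 0.14), Slc38a7 (−0.60 ± 0.15) and Slc6a2 (−3.20 ± 0.81; −4.31 without UC-MSC library 1) fell, and Slc6a19os (6.56 ± 0.67) and Slc7a6 (1.73 ± 0.36) rose.

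Members also changed after surgery without ischaemia. At sham 24 h, 9 of 53 members tested were called higher and 10 lower than in sham control kidneys, against 7.70% and 13.1% of all genes, with a median log2 fold change of −0.14. The early proximal tubule markers summed to 3793 to 5086 CPM at sham 24 h and 7616 to 10436 CPM in sham control, and their part in the members' changes was not tested. Slc3a1 had 33.1, 33.9, 37.4 and 34.4 CPM at sham 24 h and 50.8, 72.3, 41.9 and 73.9 CPM in sham control. Its groups did not overlap, and it fell by 0.78 ± 0.16 on the log2 scale (adjusted p = 0.0017). Slc3a2 had 87.4, 88.0, 99.1 and 88.2 CPM at sham 24 h and 141, 160, 141 and 148 CPM in sham control, a fall of 0.70 ± 0.09 (adjusted p = 5.9e-05) with no overlap.

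Of 5 basolateral members, 3 fell after sham surgery, namely Slc7a7 by 0.94 ± 0.15, Slc16a10 by 0.54 ± 0.14 and Slc43a2 by 0.59 ± 0.13 on the log2 scale, and 1 rose, Slc38a3 (0.56 ± 0.16, adjusted p = 0.016). The call of Slc38a3 was lost without sham 24 h library 2 (0.45), sham control library 2 (0.50) or sham control library 4 (0.49). Luminal members rose in 2 of 9, namely Slc6a18 (0.53 ± 0.13, adjusted p = 0.0076) and Slc6a20a (0.72 ± 0.17), and fell in 2, namely Slc6a20b (−0.45 ± 0.10) and Slc1a1 (−0.42 ± 0.11). Slc6a8 also fell (−0.45 ± 0.12). The betaine carrier Slc6a12, which tonicity is known to induce, had 19.7, 17.3, 23.6 and 25.3 CPM at sham 24 h and 8.49, 5.65, 6.76 and 3.98 CPM in sham control. It rose by 1.79 ± 0.22 (adjusted p = 2.4e-05), with no overlap.

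Slc7a12 had 10.1, 14.1, 15.8 and 8.12 CPM at sham 24 h and 0.705, 0.688, 0.109 and 0.0321 CPM in sham control, a log2 fold change of 5.0 ± 0.54 (adjusted p = 8.9e-06). Slc6a15, a carrier of branched-chain amino acids and proline, had 285, 270, 200 and 259 CPM at sham 24 h and 122, 88.6, 107 and 77.2 CPM in sham control (1.36 ± 0.14, adjusted p = 7.2e-06). Slc7a1 had 26.8, 34.2, 27.5 and 15.5 CPM at sham 24 h and 13.4, 9.38, 11.9 and 10.4 CPM in sham control (1.21 ± 0.20, adjusted p = 0.00042). In these 3 genes every sham 24 h library lay above every sham control library. Slc7a6 rose by 0.69 ± 0.18. Slc7a11, at 0 to 0.471 CPM at sham 24 h and 0.109 to 0.706 CPM in sham control, was too low to be tested.

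**Figure D4:**
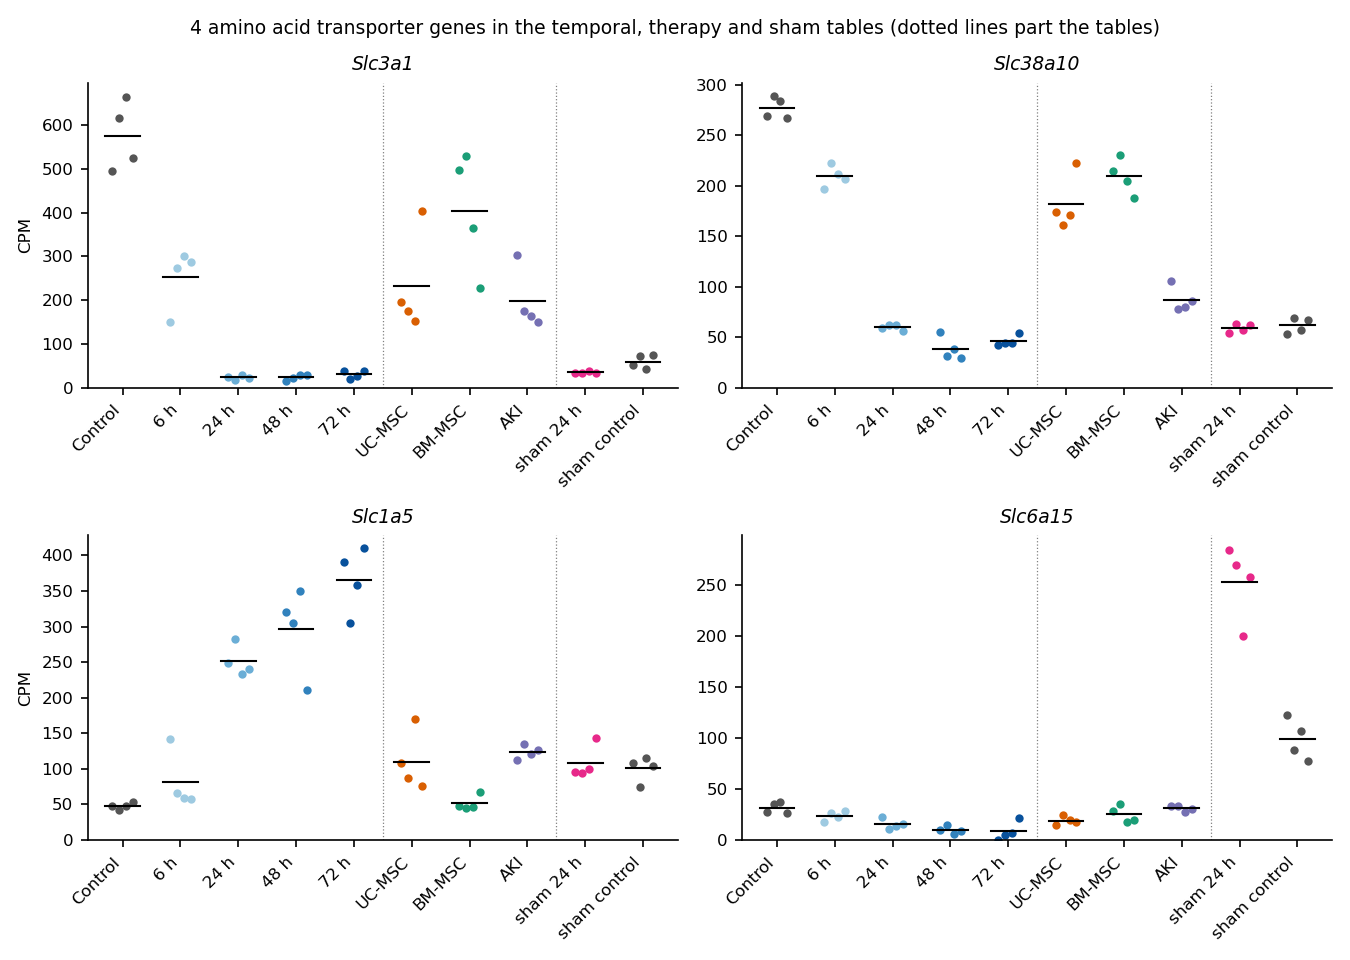
CPM of Slc3a1, Slc38a10, Slc1a5 and Slc6a15 in all groups of the temporal, therapy and sham tables; points are libraries, 4 a group, bars are means, and dotted lines part the tables. Sham control libraries stand at 41.9 to 73.9 CPM for Slc3a1 and 53.3 to 69.3 CPM for Slc38a10, far below the Control libraries of the temporal table, and above them for Slc6a15.

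The change 24 h after IRI differed from that 24 h after sham surgery for 24 of 54 members: 6 moved higher and 18 lower after IRI than after sham, against 13.4% and 10.9% of all genes. Each arm was set against its own unoperated libraries in 1 joint fit, so differences between the tables that affect an arm as a whole drop out, while differences between the parts of the temporal table do not. The difference was −3.84 ± 0.32 for Slc3a1 (adjusted p = 2.2e-10) and likewise below 0 for Slc7a13 (−5.14 ± 0.41), Slc6a20b (−3.64 ± 0.44), Slc6a19 (−2.42 ± 0.34), Slc1a1 (−2.07 ± 0.30) and Slc7a9 (−1.86 ± 0.41). Slc1a5 (2.29 ± 0.29), Slc38a2 (1.37 ± 0.22) and Slc3a2 (1.32 ± 0.21) moved higher. Slc7a11 was called higher too (5.05 ± 1.20, and 4.45 without sham control library 4). It was too low to be tested in the sham table and entered the joint fit only with the temporal libraries. Its difference is therefore no result apart from its rise after IRI. For Slc7a1 the difference was −0.072 ± 0.38 (adjusted p = 0.93).

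**Figure D5:**
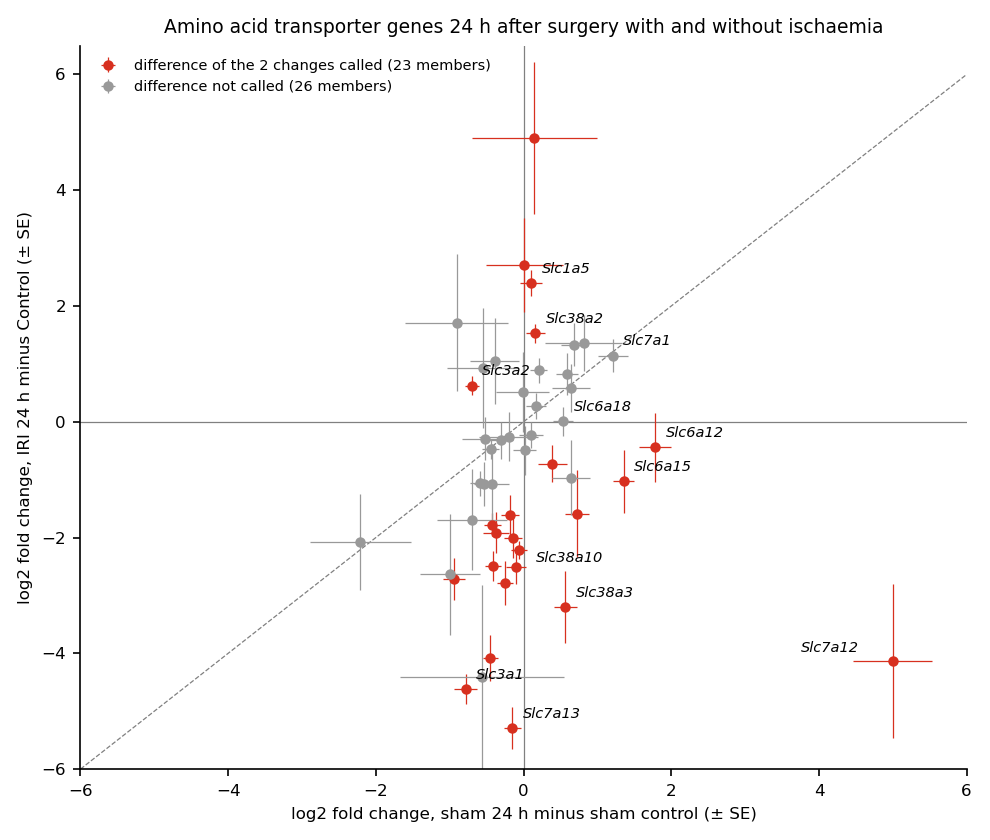
Log2 fold change with its SE of 49 members 24 h after IRI against Control (vertical axis) and 24 h after sham surgery against sham control (horizontal axis). Colours part the 23 members whose difference was called from the 26 whose difference was not; the dashed line marks equal change, and Slc7a12 and Slc6a15 lie to the right of the vertical and under the horizontal zero line.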

How the data were processed

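Per the labels, total RNA of mouse kidney (RNeasy mini kit) went into Illumina libraries. The deposited tables hold raw read counts per gene, which the authors made with HTSeq on GRCm39, per the submitters' processing notes. The aligner, versions and strand setting are not given in the sources used here. CPM was computed here from library totals scaled by TMM. Names whose Control counts differ between the temporal and therapy tables, that stand in 1 table, are repeated or share counts were left out of those fits (84 names). Each table was fitted whole in edgeR 4.0.16 (R 4.3.3) with filterByExpr and the quasi-likelihood test, over 16654 (temporal), 16624 (therapy), 17781 (sham) and 19591 (joint) genes, with Benjamini-Hochberg adjustment and a threshold of 0.05. The script was tested on simulated data. The members, roles and gene lists were chosen with earlier results of these data known. By rule, any member could be named, with values by library for heavy chain, luminal, basolateral, stress-inducible and osmolyte roles and, of other roles, for the largest called changes; from each other list, up to 4 called genes with the largest change and 2 not called. Alternatives were DESeq2 1.42.0, its size factors in edgeR, no filter, only the groups compared, a replicate block, disagreeing names kept, 6 h libraries in place of AKI, and each library left out. Promoters came from RefSeq (GRCm38.p6). Some genes of the metabolism list are not reported here by name.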

Additional observations from a re-analysis of the deposited data

Results flagged for a closer look

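In 18 of 133 groups of 4 libraries, 1 library stood apart from the other 3 beyond Dixon's 95% critical value, where chance flags about 1 in 20. The same libraries recur across genes, so the flags are not independent and their number cannot be set against that rate. At 6 h, library 1 was apart in Slc6a19 (270 CPM, others 115 to 132), Slc1a1 (89.4, others 137 to 146), Slc7a9 (38.3, others 77.4 to 80.2), Slc6a18 (613, others 779 to 803), Slc7a7 (53.9, others 107 to 112) and Slc1a5 (142, others 58.0 to 66.2). In AKI, library 1 was apart in Slc3a1 (304, others 150 to 175) and Slc43a3 (40.7, others 5.73 to 9.42). In BM-MSC, library 4 was apart in Slc3a2 (172, others 224 to 230), Slc7a11 (7.5, others 0.783 to 1.35) and Slc1a5 (66.9, others 45.5 to 48.3), and library 1 in Slc7a12 (18.8, others 8.08 to 8.34). In UC-MSC, library 4 was apart in Slc3a1 (403, others 153 to 195) and Slc7a11 (3.65, others 24.5 to 27.7), and library 1 in Slc7a12 (5.15, others 0.565 to 1.16). The last were Slc3a2 in sham 24 h library 3 (99.1, others 87.4 to 88.2), Slc7a7 in Control library 1 (163, others 186 to 189) and Slc7a7 in 48 h library 2 (2.39, others 13.2 to 15.3).

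The log2 change 24 h after IRI minus that 24 h after sham surgery was called in edgeR's joint quasi-likelihood test for 19 named members. It was below 0 for Slc7a12 (−9.12 ± 1.51, adjusted p = 3.4e-05; −9.93 without 24 h library 1), Slc7a13 (−5.14), Slc3a1 (−3.84), Slc38a3 (−3.78), Slc6a20b (−3.64), Slc6a13 (−2.54), Slc6a19 (−2.42), Slc6a15 (−2.39 ± 0.53, adjusted p = 0.00093), Slc6a12 (−2.23 ± 0.66, adjusted p = 0.011), Slc38a10 (−2.15), Slc1a1 (−2.07), Slc7a9 (−1.86), Slc7a7 (−1.77), Slc7a8 (−1.54) and Slc6a6 (−1.36). It was above 0 for Slc1a5 (2.29), Slc38a2 (1.37) and Slc3a2 (1.32). It was also above 0 for Slc7a11 (5.05, and 4.45 without sham control library 4), which was too low to be tested in the sham table. Slc7a12 had 0.742, 0, 0.354 and 0 CPM at 24 h after IRI and 6.17, 3.38, 5.74 and 4.12 CPM in Control.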

How the results depend on the processing

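Of 176 named log2 fold changes, all called, 164 kept call and direction in every refit that gave a value. Counts of members called that moved by over 1.5 times were these. With only the groups compared in the fit, 11 were called higher and 14 lower at 6 h, 17 higher at 24 h, 8 higher for 24 h minus 6 h, 2 higher for 48 h minus 24 h, 0 higher and 0 lower for 72 h minus 48 h, 12 higher and 7 lower in BM-MSC against Control, 5 lower in UC-MSC against AKI, and 10 higher in UC-MSC against BM-MSC. Over all genes that setting called 3980 higher and 3463 lower of 15505 at 6 h, and 5895 of 15895 higher at 24 h. It called 4072 higher for 24 h minus 6 h, and 20 higher and 4 lower for 72 h minus 48 h. In BM-MSC against Control it called 2720 and 2249, and in UC-MSC against AKI 1771 lower. These moved with the members, but 48 h minus 24 h (1499 to 1509 higher) and UC-MSC against BM-MSC (1668 to 1700) hardly did. DESeq2 called 2 higher for 48 h minus 24 h, 6 lower for 72 h minus 48 h and 14 higher in UC-MSC against AKI. Over all genes it called 2245 (1499 in the main fit), 953 (605) and 3779 (3378) there. Without a filter, 2 were higher for 48 h minus 24 h and 2 for 72 h minus 48 h, where all genes had 1190 and 361 of 32472. With 6 h libraries in place of AKI, BM-MSC had 0 and 0 calls and UC-MSC 5 and 5, and Slc43a3 in BM-MSC, called higher against AKI, stood at −0.0496 (adjusted p = 0.91). Replicate numbers did not pair the libraries, since no comparison had every pair's correlation over 0.1. With the replicate block, 0 were higher for 72 h minus 48 h and 0 in BM-MSC against Control. Over all genes that setting called 175 (340 in the main fit) and 801 (1091) higher there. No block could be fitted for sham and joint comparisons. With each library left out in turn, calls higher and lower ranged over 2 to 6 and 7 to 8 at 6 h, 4 to 8 and 12 to 18 for 24 h minus 6 h, 1 to 2 and 11 to 14 for 48 h minus 24 h, 1 to 3 and 2 to 6 for 72 h minus 48 h, 8 to 12 and 8 to 20 in AKI, 0 to 2 and 1 to 3 in BM-MSC, 6 to 16 and 7 to 10 in UC-MSC against AKI, and 5 to 8 and 5 to 13 in UC-MSC against BM-MSC. Calls over all genes ranged widely too. They were 1280 to 1649 and 1008 to 1255 at 6 h, and 1755 to 2531 and 1812 to 2344 for 24 h minus 6 h. For 48 h minus 24 h they were 1035 to 1512 and 1565 to 2244, and for 72 h minus 48 h 315 to 547 and 530 to 842. In AKI they were 2538 to 4091 and 1961 to 4074, and in BM-MSC 493 to 1134 and 89 to 350. UC-MSC had 2862 to 4671 and 2721 to 4354 against AKI, and 1015 to 1982 and 870 to 2231 against BM-MSC. DESeq2 size factors shifted the members' log2 fold changes by a median of 0.10 at 48 h, 0.13 at 72 h and 0.10 for 48 h minus 24 h. With the names of disagreeing counts kept, 140 named values kept their call and 1, Slc6a20a in BM-MSC, lost it. The causes were not tested. At 3 counts over the group, levels under 0.119 CPM at 48 h and 0.161 CPM at 72 h were not detectable.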
